A study of Mus musculus with 32 samples.

Results

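The transcription factors that drive adipocyte formation were followed in the epididymal fat depot (eWAT) and the liver of male C57BL/6 mice (C57BL/6J in the study's methods), 10 weeks old. They are 10 genes, Pparg, Cebpa, Cebpb, Cebpd, Ebf1, Ebf2, Zfp423, Rxra, Klf5 and Nr1h3, taken by gene symbol from the 47643 Ensembl gene IDs of the count table. Mice received corticosterone in the drinking water (cort) or its ethanol vehicle (veh) for 7 days while eating a normal-protein diet (NPD; 20% kcal from protein) or a high-protein diet (HPD; 60% kcal). By the study's methods the HPD also held less carbohydrate, as corn starch, so that both diets matched in calories. More protein and less carbohydrate therefore cannot be told apart in any diet comparison below. Each of the 4 groups (veh on the NPD, veh on the HPD, cort on the NPD, cort on the HPD) gave 4 libraries per tissue. Cort is given from outside while the animals' own adrenal glands remain, and no allele differs between groups. The labels number the libraries of a group but do not say that each number is a separate mouse. The p-values below therefore measure the spread between libraries.

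In cultured preadipocytes, an adipogenic stimulus that includes a glucocorticoid switches on Cebpb and Cebpd first. These factors, with the zinc finger protein KLF5, turn on Pparg and Cebpa, which then maintain each other and the genes of the mature fat cell. ZFP423 and the early B-cell factors EBF1 and EBF2 mark committed precursors and stay expressed in adipocytes. RXRα is the partner with which PPARγ and the oxysterol receptor LXRα, the product of Nr1h3, bind DNA. In liver, C/EBPα and C/EBPβ serve hepatocyte programs, including gluconeogenesis.

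The libraries are QuantSeq libraries, which read 1 tag near the 3′ end of each transcript, so a count does not grow with transcript length. CPM, the count of a gene scaled to its library's size, is therefore compared between genes without a correction for length. Other differences between genes in how their tags are counted were not tested. Totals ran from 9794683 to 18057936 counts per eWAT library and from 8933307 to 17447524 per liver library. Library sizes were scaled by TMM factors, which correct library size for composition within a tissue. Liver library 4 of veh on the HPD was left out of all values given below unless named. The rule that set the genes and comparisons excludes that library by name. In a scaling of all 16 liver libraries, Cebpa stood at 129 CPM in it. The other 3 libraries of its group read 284 to 358 CPM in the scaling of 15 used below. Calls that changed with all 16 liver libraries are given below. The tissue labels were checked with marker genes. The summed level of 5 adipocyte markers (Adipoq, Plin1, Fabp4, Cidec, Lep) was between 24979 and 32842 CPM in every eWAT library and at most 84.3 CPM in liver. Of 8 epididymis and testis markers, the sum was 6729 CPM in eWAT library 4 of cort on the HPD, from 1.05 to 11.04 CPM in the other 3 of that group and at most 4.51 CPM in the other groups. Red blood cell markers (5 genes) summed to 12684 to 25856 CPM in the 4 eWAT libraries of cort on the HPD and to 3619 to 9273 CPM in the other 12. Of 10 genes known to respond to glucocorticoids, 3 rose in eWAT with cort on the NPD. They are Mt2 (log2 fold change 2.49 ± 0.43 SE), Fkbp5 (1.74 ± 0.39) and Cdkn1a (1.05 ± 0.28). On the HPD only Mt2 of the 10 rose (1.86 ± 0.42), while Sgk1 (-1.14 ± 0.26) and Zbtb16 (-1.24 ± 0.33) fell, all at an adjusted p under 0.05. In liver only Fkbp5 of the 10 rose on the NPD (2.23 ± 0.48) and none fell. On the HPD 0 of the 10 rose in liver, while Per1 (-1.585 ± 0.33) and Zbtb16 (-2.80 ± 0.66) fell at the same threshold. The share of all genes passing on the NPD and the HPD was 7.98% and 6.09% in eWAT. It was 12.6% and 9.89% in liver.

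The sequences shown are those of the 3 members that changed with cort on both diets in a tissue. Zfp423 and Cebpa rose in eWAT and Cebpb fell in liver. Their promoters, 250 bases before to 50 after the transcription start, were taken from RefSeq (GRCm38.p6) at the start that coincides with the gene start of GENCODE vM21. All 3 are protein-coding genes. The Cebpa window lies at chr7:35119043-35119342 on the plus strand, the Cebpb window at chr2:167688665-167688964 on the plus strand and the Zfp423 window at chr8:87959546-87959845 on the minus strand. Capitals mark the TATA box letters TATAAA.
Cebpa: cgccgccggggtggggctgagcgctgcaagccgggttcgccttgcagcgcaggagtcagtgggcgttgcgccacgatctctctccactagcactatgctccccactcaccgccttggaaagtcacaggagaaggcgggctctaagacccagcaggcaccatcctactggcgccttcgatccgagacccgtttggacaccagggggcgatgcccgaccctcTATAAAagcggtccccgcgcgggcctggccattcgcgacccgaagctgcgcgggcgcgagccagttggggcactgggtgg
Cebpb: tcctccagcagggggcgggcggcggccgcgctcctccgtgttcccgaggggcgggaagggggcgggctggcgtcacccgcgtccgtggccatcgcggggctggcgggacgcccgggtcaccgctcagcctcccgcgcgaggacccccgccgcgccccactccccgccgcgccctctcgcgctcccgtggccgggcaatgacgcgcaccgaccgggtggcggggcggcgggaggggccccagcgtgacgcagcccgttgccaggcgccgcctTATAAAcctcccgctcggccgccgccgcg
Zfp423: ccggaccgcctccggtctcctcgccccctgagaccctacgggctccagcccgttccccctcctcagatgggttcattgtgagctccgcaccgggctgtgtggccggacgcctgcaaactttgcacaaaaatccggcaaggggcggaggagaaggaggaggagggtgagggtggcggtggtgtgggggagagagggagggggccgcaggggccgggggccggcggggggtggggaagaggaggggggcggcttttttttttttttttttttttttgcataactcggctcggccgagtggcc
GC content was 67.3% for Cebpa, 80.7% for Cebpb and 65.7% for Zfp423. TATAAA, searched on both strands, was found in 13.6% of 32851 RefSeq promoter windows of the same length. It stood 30 bases before the start in Cebpa, 21 bases after the start in Cebpb and was not in the Zfp423 window. AGAACA, the core of the glucocorticoid response element, was in none of these 3 windows and in 19% of all windows. AGGTCA, the core of nuclear receptor sites, was in none of them and in 16.3% of all windows, and TTGCGCAA, a C/EBP motif, was in none of them and in 0.183% of all windows. These are matches of letters in a short window and say nothing of sites elsewhere in a gene. Of the other members, Pparg (3 starts), Ebf1 (2), Rxra (2) and Nr1h3 (2) had RefSeq windows. AGGTCA stood 28 and 9 bases before 2 of the Pparg starts, 87 and 48 bases before 1 Rxra start and 34 bases before a further start of Zfp423. TATAAA stood 29 bases before 1 Pparg start, and AGAACA and TTGCGCAA were in none of these windows.

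In eWAT of veh mice on the NPD, the members covered a wide range of levels. Ebf1 (402 ± 36.4 CPM, mean ± SD, n = 4) and Cebpa (346 ± 41.4 CPM) were highest, and their libraries overlapped. Pparg followed at 145 ± 73.7 CPM, with Rxra at 87.8 ± 11.1, Nr1h3 at 76.98 ± 12.8 and Cebpd at 72.7 ± 34.0 CPM. Neighbours among these 4 genes overlapped, so their order does not go beyond the spread of the libraries. Ebf2 was at 55.7 ± 11.5 CPM, Zfp423 at 33.8 ± 1.29 CPM and Cebpb at 20.2 ± 9.77 CPM. Klf5 was lowest at 3.37 ± 1.18 CPM, below every value of every other member in that group. Over all 16 eWAT libraries the highest value of a gene exceeded its lowest by 1.44-fold for Rxra, the steadiest member, and by 6.48-fold for Klf5, whose counts per library were 20 to 172.

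**Figure D1:**
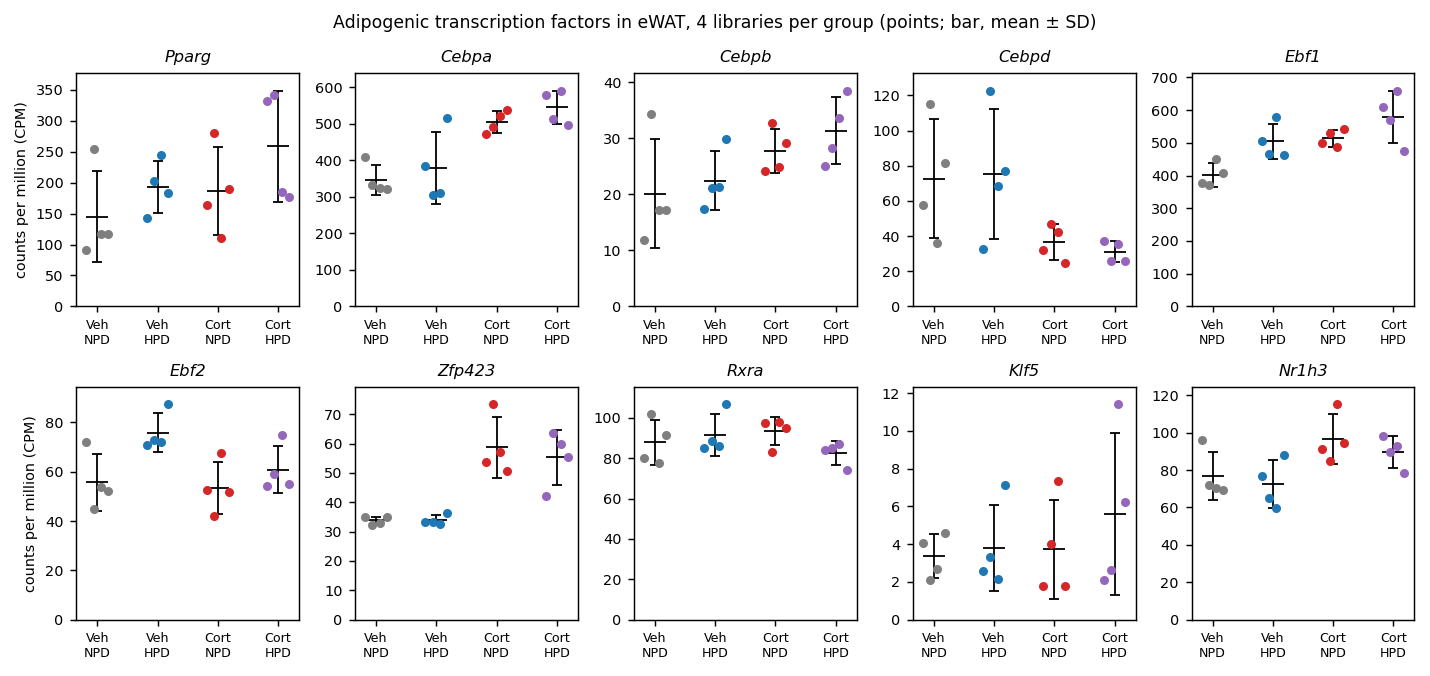
CPM of the 10 members in each eWAT library, by group; points are libraries, the bar is the mean ± SD of 4 libraries, and every axis starts at 0. The cort libraries of Zfp423 lie above all veh libraries, those of Cebpa above all but 1 veh library on the HPD, and Cebpd is low and tightly grouped in cort.

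With cort on the NPD, 2 of the 10 members rose in eWAT, Zfp423 and Cebpa, and none fell. On the HPD the same 2 rose and none fell. Each test was edgeR's quasi-likelihood test over all 15187 genes with Benjamini-Hochberg adjustment at 0.05. Of all genes, 7.98% passed on the NPD and 6.09% on the HPD. The mean cort effect over both diets, which uses 8 libraries on each side, passed for 5 members, with Zfp423, Cebpa, Ebf1 and Nr1h3 higher and Cebpd lower, where 15.5% of all genes passed. The median log2 change of the 10 members was 0.34 on the NPD, 0.37 on the HPD and 0.34 for the mean effect, while the median over all genes was -0.02, -0.0025 and -0.02. In bulk tissue, fewer cells of a type and less RNA per cell cannot be told apart.

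Zfp423, a commitment factor of white adipocyte precursors that also holds mature adipocytes in the white state, had the smallest p of the members on both diets. On the NPD its eWAT libraries read 34.9, 32.4, 33.1 and 34.9 CPM in veh and 53.6, 73.6, 57.0 and 50.6 CPM in cort. On the HPD they read 33.3, 33.4, 32.7 and 36.4 CPM in veh and 42.3, 63.7, 59.8 and 55.5 CPM in cort. Every cort library lay above every veh library of its diet, and the 8 veh libraries lay between 32.4 and 36.4 CPM. The increase was 1.74-fold on the NPD (log2 0.80 ± 0.14 SE, adjusted p = 5.4e-04) and 1.63-fold on the HPD (0.70 ± 0.14, adjusted p = 0.0023). Averaged over diets it was 1.68-fold (0.75 ± 0.10, adjusted p = 4.8e-06). Its call held in every alternative setting and without any single library, with log2 values of 0.67 to 0.86 on the NPD and 0.63 to 0.81 on the HPD when 1 library was left out.

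Cebpa, the factor of late differentiation and insulin sensitivity, rose on both diets. Its veh libraries on the NPD read 408, 331, 325 and 321 CPM and its cort libraries 472, 490.4, 522 and 538 CPM, with no overlap. On the HPD the veh libraries read 385, 304, 311 and 516 CPM and the cort libraries 579.9, 512, 589 and 498 CPM. There, library 4 of veh lay within the cort range. The increase was 1.46-fold on the NPD (log2 0.55 ± 0.14, adjusted p = 0.013), 1.44-fold on the HPD (0.52 ± 0.14, adjusted p = 0.023) and 1.45-fold over both diets (0.53 ± 0.10, adjusted p = 3.2e-04). On the HPD the call was lost without library 1, 2 or 3 of veh or library 1 or 3 of cort (log2 0.43 to 0.53, adjusted p = 0.055 to 0.11). It was also lost when only the 2 groups compared entered the fit (0.51, adjusted p = 0.101, the highest of 8 alternatives, the lowest being 2.2e-04).

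Pparg, the master regulator of adipogenesis, had no change that passed the test, and its error was wide. Its eWAT libraries read 91.2, 254, 118 and 117 CPM in veh and 165, 280.3, 110.4 and 189.8 CPM in cort on the NPD. On the HPD they read 143, 202, 245 and 183 CPM in veh and 332, 341, 185 and 177 CPM in cort. Library 2 was high among the veh libraries on the NPD, and the groups overlapped on both diets. The log2 difference was 0.36 on the NPD (95% interval -0.36 to 1.09) and 0.42 on the HPD (-0.30 to 1.14), so a 2-fold rise lies within the interval of each.

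Of the early factors, Cebpd fell over both diets and Cebpb did not pass the test. Cebpd read 57.7, 115, 36.2 and 81.7 CPM in veh and 32.0, 47.1, 42.5 and 24.4 CPM in cort on the NPD. On the HPD it read 32.7, 123, 68.5 and 76.7 CPM in veh and 37.2, 25.7, 35.6 and 25.9 CPM in cort. The veh libraries were spread from 32.7 to 123 CPM and the cort libraries lay between 24.4 and 47.1 CPM, so that 1 veh library of each diet fell inside the cort range. The mean level over diets was 2.19-fold lower in cort (log2 -1.13 ± 0.29, adjusted p = 0.017), and this held in each alternative and without any single library. Within a diet it did not pass (-0.99 ± 0.40, adjusted p = 0.18 on the NPD and -1.27 ± 0.41, adjusted p = 0.094 on the HPD). On the HPD it passed in DESeq2 (adjusted p = 0.024) and without library 1 of veh (-1.52, adjusted p = 0.035). Exons of Cebpd share 562 bases with Spidr on the other strand, which had 22 to 197 counts per eWAT library. The sources used here do not say whether counting used strand, so reads of the 2 genes may not be separated.

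Cebpb read 11.9, 34.3, 17.2 and 17.2 CPM in veh and 24.2, 32.7, 24.9 and 29.2 CPM in cort on the NPD. On the HPD the veh libraries read 17.4, 21.2, 21.4 and 29.9 CPM and the cort libraries 25.01, 28.2, 33.6 and 38.5 CPM. The groups overlapped on both diets, on the NPD through library 2 of veh alone. Its mean difference was 0.47 ± 0.17 on the log2 scale (adjusted p = 0.063). It passed without library 2 of veh on the NPD (0.66, adjusted p = 0.0015) and without library 4 of veh on the HPD (0.56, adjusted p = 0.024), with limma voom (0.55, adjusted p = 0.017), with voom and sample quality weights (0.56, adjusted p = 0.0051) and when replicate number was a block (0.50, adjusted p = 0.018). It reached an adjusted p of 0.11 with library totals. On the NPD alone it passed without library 2 of veh (0.85, adjusted p = 0.013). Exons of Cebpb share 312 bases with Tmem189 on the other strand, which had 356 to 824 counts per eWAT library against 193 to 599 for Cebpb. Tmem189 itself rose in eWAT (mean log2 0.73 ± 0.11, adjusted p = 2.1e-05), and whether its reads entered the count of Cebpb was not tested. Klf5, at 20 to 172 counts per library, had log2 differences of 0.14 ± 0.54 (NPD) and 0.57 ± 0.53 (HPD), and the groups overlapped. Its difference on the NPD turned to -0.069 with limma voom and -0.18 with sample quality weights. Its libraries spread from 1.77 to 7.33 CPM in cort on the NPD and from 2.10 to 11.4 CPM in cort on the HPD.

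**Figure D2:**
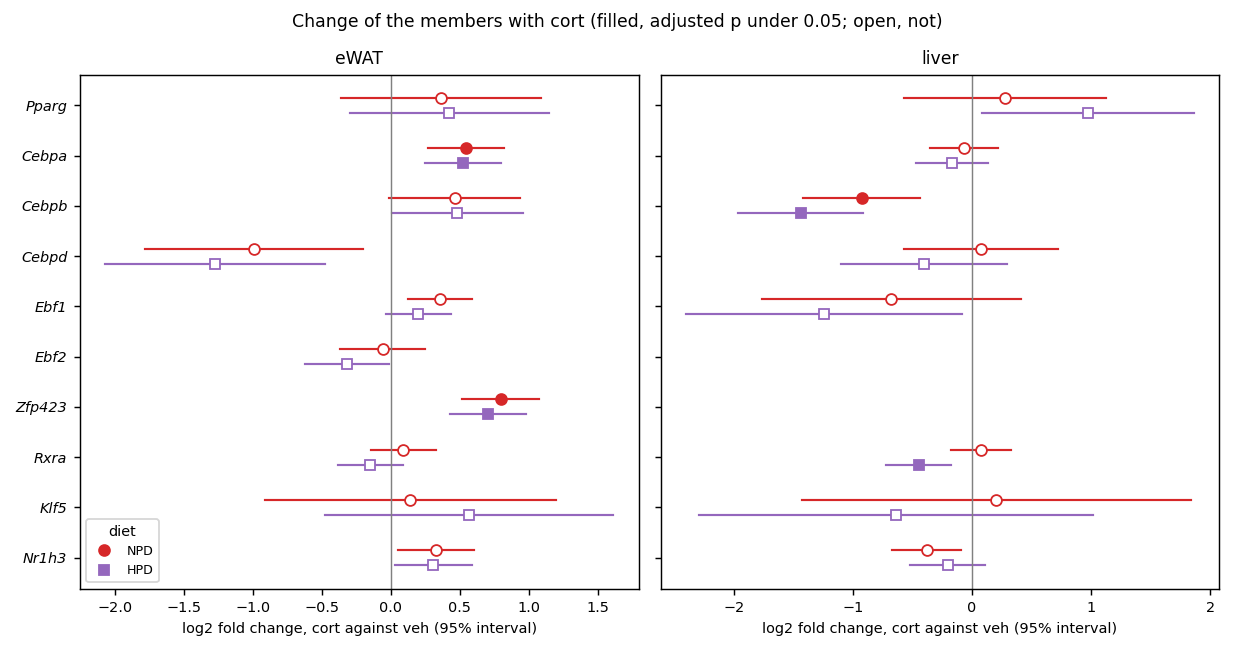
Log2 fold change of each member, cort against veh, in eWAT (left) and liver (right) on the NPD (circles) and the HPD (squares), with 95% intervals; filled symbols passed an adjusted p of 0.05. In eWAT the filled symbols are Zfp423 and Cebpa, both above 0 on both diets; in liver they are Cebpb on both diets and Rxra on the HPD, all below 0, and Ebf2 and Zfp423 were too low there to be tested.

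Of the other precursor factors, Ebf1 rose on average over diets and Ebf2 did not pass. Ebf1 read 379, 372, 452 and 407 CPM in veh and 499, 529, 487 and 543 CPM in cort on the NPD, with no overlap. On the HPD its veh libraries read 506, 467, 580.3 and 464 CPM and its cort libraries 609.9, 571, 660.2 and 475 CPM, and these overlapped. The mean effect was 1.21-fold (log2 0.28 ± 0.08, adjusted p = 0.024), lost without library 2 of veh, 1 of cort or 3 of cort on the HPD (0.24 to 0.26, adjusted p = 0.058 to 0.073) and with library totals in place of TMM factors (0.21, adjusted p = 0.096, against 0.0034 to 0.028 in the other alternatives). On the NPD alone it did not pass (0.36 ± 0.12, adjusted p = 0.067), though it did without library 4 of veh or library 4 of cort on the HPD (0.36 in each, adjusted p = 0.032 and 0.047), with DESeq2, limma voom with or without sample quality weights, and only the groups compared in the fit (adjusted p = 0.018 to 0.048 in these 4, up to 0.21 with library totals).

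Ebf2, which marks precursors of thermogenic adipocytes, read 44.7 to 72.0 CPM in veh and 41.9 to 67.5 CPM in cort on the NPD. On the HPD it read 70.7 to 87.6 CPM in veh and 54.3 to 74.8 CPM in cort. Its groups overlapped on both diets, and the differences of -0.06 ± 0.16 and -0.32 ± 0.16 did not pass (adjusted p = 0.90 and 0.27).

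Counted by library range, 3 members did not overlap between veh and cort on the NPD (Zfp423, Cebpa, Ebf1), where 14.9% of all genes did not overlap. On the HPD only Zfp423 did not overlap, where 11.3% of all genes did not overlap.

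Of the receptor partners, Nr1h3 rose on average over diets and Rxra did not pass. Nr1h3 read 96.1, 72.1, 70.5 and 69.2 CPM in veh and 91.5, 85.0, 115 and 94.3 CPM in cort on the NPD. On the HPD its libraries read 77.04, 65.2, 59.5 and 88.2 CPM in veh and 98.1, 89.8, 93.0 and 78.3 CPM in cort. The groups overlapped through library 1 of veh on the NPD and library 4 of veh on the HPD. The mean effect was 1.25-fold (log2 0.32 ± 0.10, adjusted p = 0.029). It was lost without library 2, 3 or 4 of veh or 3 of cort on the NPD, or library 2 or 3 of veh or 1 or 3 of cort on the HPD (0.27 to 0.31, adjusted p = 0.052 to 0.080), and with library totals (0.26, adjusted p = 0.061, against 0.0035 to 0.034 in the other alternatives). Within a diet it did not pass (0.33 ± 0.14, adjusted p = 0.18, and 0.31 ± 0.14, adjusted p = 0.22). Rxra stayed between 74.1 and 107 CPM in all 16 libraries. Its cort difference was 0.09 (95% interval -0.15 to 0.33) on the NPD and -0.15 (-0.39 to 0.09) on the HPD.

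Diet was compared within veh and within cort. No member passed in eWAT by edgeR, DESeq2 or limma, where 0.0593% of all genes passed in veh and 0.487% in cort. In veh, Ebf2 was higher on the HPD by 0.44 ± 0.16 (adjusted p = 0.38) and Ebf1 by 0.33 ± 0.12 (adjusted p = 0.41). These were the 2 members of 10 with an unadjusted p under 0.05, which 1219 of all 15187 genes had. In cort 0 members had one, against 1490 genes. In veh, Ebf1 read 464 to 580.3 CPM on the HPD and 372 to 452 CPM on the NPD, and Ebf2 overlapped through library 1 of the NPD at 72.0 CPM. Ebf1 was the 1 member of 10 without overlap. The share of all genes without overlap was not computed for this comparison, so the ranges are a description. Whether the cort effect differed between diets was tested as an interaction. It passed for no member by edgeR, DESeq2 or limma, and 0 members had an unadjusted p under 0.05 by edgeR, against 784 genes, where 0.0132% of all genes passed. For Zfp423 the effect on the HPD differed from that on the NPD by -0.09 (95% interval -0.48 to 0.30), for Cebpa by -0.02 (-0.41 to 0.36) and for Cebpd by -0.28 (-1.39 to 0.83).

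The level of Cebpd relative to Cebpa in the same library does not depend on the scaling of the library. In eWAT, Cebpd counts were 14.1%, 34.8%, 11.1% and 25.5% of Cebpa counts in veh and 6.78%, 9.60%, 8.14% and 4.54% in cort on the NPD. On the HPD they were 8.48%, 40.4%, 22.0% and 14.9% in veh and 6.41%, 5.02%, 6.05% and 5.21% in cort. All 4 cort libraries lay below all 4 veh libraries on each diet. The median went from 19.8% to 7.46% on the NPD and from 18.4% to 5.63% on the HPD. Cebpb counts were 2.92% to 10.4% of Cebpa counts in veh and 4.31% to 7.74% in cort over both diets, with medians of 5.28% to 6.33%. Ebf2 counts were 11.9% to 19.0% of Ebf1 counts in veh and 7.92% to 13.9% in cort, overlapping on the NPD and not on the HPD. These ratios are descriptions and were given no test. Cebpd to Cebpa joins a member lower in cort with a member higher in cort in the same libraries. Its separation is therefore no independent support for either change. The share of other gene pairs that separate was not computed.

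**Figure D3:**
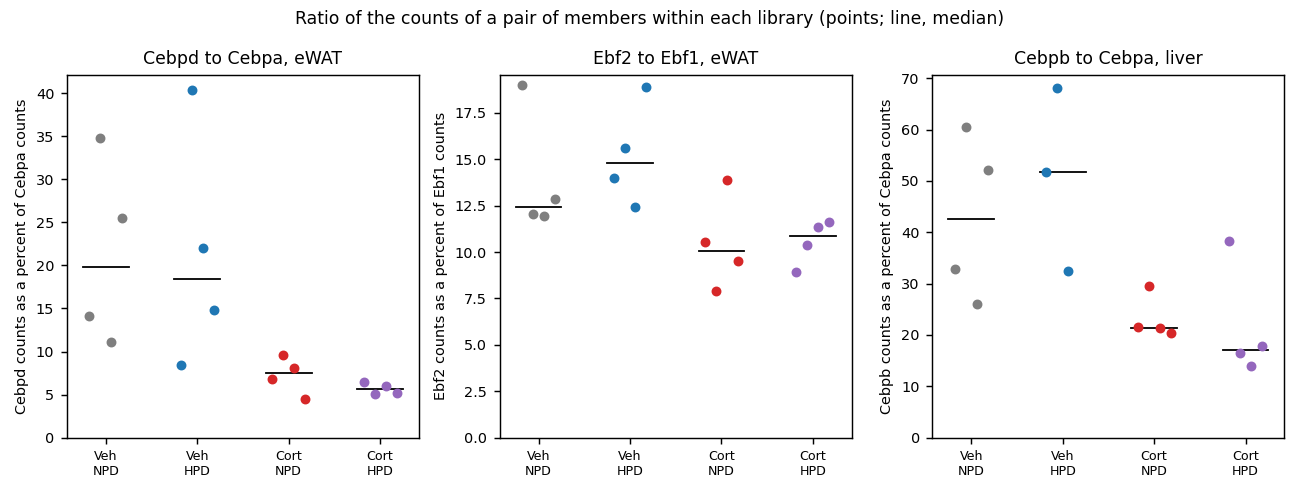
Counts of 1 member as a percent of the counts of another in the same library, for Cebpd to Cebpa and Ebf2 to Ebf1 in eWAT and Cebpb to Cebpa in liver; points are libraries, lines are medians, axes start at 0. The cort libraries sit below 10% for Cebpd to Cebpa, under every veh library of the same diet.

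Markers of other eWAT cells moved beside these genes. The summed level of 8 progenitor and fibroblast markers was 2903 to 3663 CPM in veh and 1894 to 2619 CPM in cort. Of the 8, 5 fell on each diet and none rose. The 5 macrophage markers summed to 371 to 465 CPM in veh and 291 to 410.4 CPM in cort, with 2 lower on each diet and 1 higher on the HPD. Of 5 endothelial markers, summing to 346 to 709 CPM in veh and 301 to 414 CPM in cort, 3 fell on the NPD and 1 on the HPD. The 5 adipocyte markers summed to 25348 to 32842 CPM in veh and 24979 to 32609 CPM in cort, with 2 higher and 1 lower on the NPD and 1 higher and 1 lower on the HPD. Adipoq was the lower marker on both diets. The share of all genes that passed was 7.98% on the NPD and 6.09% on the HPD. No defining marker of these 4 lists was at 0 in any group. The part of these shifts in the changes of Zfp423, Cebpa and Cebpd was not tested. Without library 4 of cort on the HPD, which carried the epididymis transcripts, Zfp423 and Cebpa were still called on the HPD and the 5 members named above for the mean effect, and Ebf1 was called beside the 2 on the NPD.

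The wider set of regulators was read beside the members. Of 21 other factors that favour adipogenesis, all tested, Ppargc1b, a coactivator of mitochondrial genes, rose on the NPD (log2 1.25 ± 0.37, adjusted p = 0.046) and Prdm16, the brown fat determinant, fell (-1.65 ± 0.34, adjusted p = 0.0022). None of the 21 passed on the HPD, and for the mean effect 1 was higher and 4 were lower. Of 17 tested factors that restrain adipogenesis, Klf2 fell on the NPD (-0.62 ± 0.16, adjusted p = 0.016) and none passed on the HPD, while for the mean effect 1 was higher and 3 were lower. The median log2 change of the first list was 0.03 and 0.04, and of the second -0.16 and -0.04, on the NPD and HPD. The share of all genes that passed was 7.98% on the NPD, 6.09% on the HPD and 15.5% for the mean effect. The counts of both lists were not tested against these shares.

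Adipocyte genes bound by PPARγ and C/EBPα moved in both directions. Of 25, 7 rose and 3 fell on the NPD, where 7.98% of all genes passed. On the HPD, where 6.09% passed, 4 rose and 4 fell. The median log2 change was 0.07 on the NPD and 0.09 on the HPD. Those with the smallest p among the higher genes on the NPD were Slc2a4, the insulin-responsive glucose transporter (1.14 ± 0.20), the acyl-CoA synthetase Acsl1 (0.83 ± 0.17) and Agpat2 of triglyceride synthesis (0.79 ± 0.18). On the HPD they were Dgat2, the last enzyme of triglyceride synthesis (1.03 ± 0.19), glycerol kinase Gk (1.91 ± 0.46) and Agpat2 (0.66 ± 0.18). Gk stood at 5.75 ± 1.90 CPM in veh and 21.6 ± 17.0 CPM in cort on the HPD, a wide spread in cort. Its rise was not tested without single libraries. The lower genes with the smallest p were the same on both diets. Aqp7, the glycerol channel, had log2 changes of -0.81 ± 0.13 on the NPD and -1.11 ± 0.13 on the HPD. Adipoq, which encodes adiponectin, changed by -0.58 ± 0.14 and -0.81 ± 0.14 in the same order, and Cfd, complement factor D, by -1.62 ± 0.36 and -2.22 ± 0.36. Adipoq stood at 6645 ± 1289 CPM in veh and 4449 ± 554 CPM in cort on the NPD. Of 9 tested LXR target genes, Lpcat3, which remodels phospholipids, rose on both diets (0.71 ± 0.13 and 0.69 ± 0.13). Pltp, the phospholipid transfer protein, fell on the NPD (-0.98 ± 0.15), as did Apoe (-0.53 ± 0.16), and no other of the 9 passed on the NPD. On the HPD Lpcat3 alone passed, Pltp differed by -0.38 ± 0.14 and Apoe by -0.39 ± 0.16 (adjusted p = 0.13 and 0.16). The median of the 9 was -0.0023 on the NPD and -0.31 on the HPD, and none of them passed the interaction.

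In liver, 8 members were tested. Ebf2 (0 to 6 counts per library) and Zfp423 (0 to 8 counts) were below the filter on low counts. Ebf1 (2 to 15 counts) and Klf5 (0 to 14 counts) were near it. Set beside eWAT in veh on the NPD, in a fit of 31 libraries, all 10 members passed, where 62.7% of all genes passed. Ebf2 and Zfp423 passed the filter of this fit only through their eWAT counts. Their calls were therefore largely fixed in advance and add nothing to the count of members. Pparg was 18.3-fold lower in liver (log2 -4.19 ± 0.47) and Ebf1 was lower by -8.26 ± 0.23 on the log2 scale, at 3 to 11 counts per liver library of that group. Cebpb was 11.6-fold higher in liver (3.54 ± 0.30) and Rxra 3.14-fold higher (1.65 ± 0.12). The median over all genes was -0.26 in this comparison and -1.28 with library totals in place of TMM factors. With library totals the log2 differences were 2.50 for Cebpb, 0.63 for Rxra, -5.25 for Pparg and -9.27 for Ebf1. The direction of Cebpa turned with that choice (0.68 ± 0.15 with TMM, -0.33 with library totals, adjusted p = 0.059), and Nr1h3 (1.33 ± 0.15) did not pass with library totals (0.32, adjusted p = 0.054). The call of Cebpd (-0.88 ± 0.38, adjusted p = 0.048) was lost in 23 of the 31 fits without 1 library (-1.18 to -0.54 over all 31) and with no filter, limma voom and voom with sample quality weights (adjusted p = 0.059 to 0.076). It held only without library 3 of veh on the NPD or 1 or 2 of veh on the HPD in eWAT, or without library 2 of veh on the NPD, 1 or 2 of veh on the HPD, 4 of cort on the NPD or 1 of cort on the HPD in liver. The call of Klf5 (-1.98 ± 0.75, adjusted p = 0.022) was lost without eWAT library 4 or liver library 1, 2 or 4 of veh on the NPD (-1.87 to -1.61, adjusted p = 0.056 to 0.072).

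Cebpb was the only member called with cort on both diets in liver. Its libraries read 83.9, 153, 80.9 and 138 CPM in veh and 61.0, 75.9, 57.8 and 45.0 CPM in cort on the NPD. On the HPD they read 174, 193 and 116 CPM in veh and 89.2, 51.5, 45.8 and 51.3 CPM in cort. Every cort library lay below every veh library of its diet. Of the 8 members tested, 1 did not overlap on the NPD and 3 did not on the HPD, where veh had 3 libraries. The share of all genes without overlap was not computed for liver, so these ranges, and those of Rxra below, are descriptions. The level was 1.90-fold lower on the NPD (log2 -0.93 ± 0.25, adjusted p = 0.021), 2.71-fold lower on the HPD (-1.44 ± 0.27, adjusted p = 0.0021) and 2.27-fold lower over both diets (-1.18 ± 0.18, adjusted p = 1.5e-04). Cebpb was the member called on the NPD, where 12.6% of all genes passed, and for the mean effect, where 20.4% passed. On the NPD the call was lost without library 2 or 4 of veh or 3 or 4 of cort (-0.92 to -0.76, adjusted p = 0.051 to 0.065). On the HPD and for the mean effect it held without any single library. Cebpb counts went from a median of 42.5% of Cebpa counts in veh to 21.4% in cort on the NPD and from 51.7% to 17.1% on the HPD, overlapping on each diet. The 4 Kupffer cell markers, resident liver macrophages, summed to 146 to 212 CPM in veh and 56.9 to 138 CPM in cort, with 4 lower on the NPD and 3 on the HPD. The 5 general macrophage markers summed to 69.7 to 93.4 CPM in veh and 31.4 to 64.0 CPM in cort, with 2 lower on each diet. No marker of either list was at 0 in liver, and their part in the fall of Cebpb was not tested. Tmem189 had 97 to 267 counts per liver library against 598 to 3113 for Cebpb, and rose (mean log2 0.47 ± 0.15, adjusted p = 0.034).

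**Figure D4:**
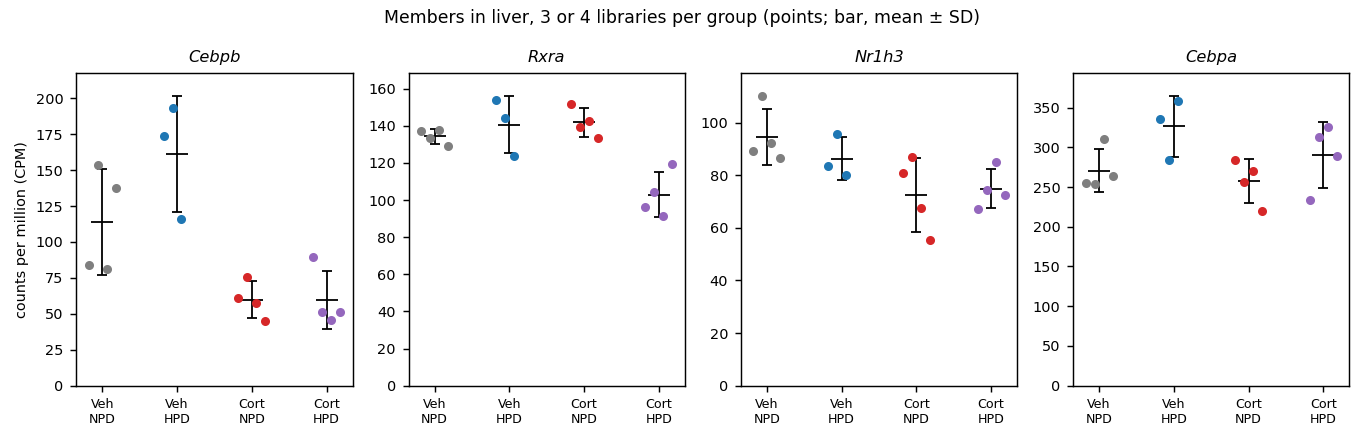
CPM of Cebpb, Rxra, Nr1h3 and Cebpa in each liver library, by group, without library 4 of veh on the HPD; points are libraries, the bar is the mean ± SD of 3 or 4 libraries, axes start at 0. All cort libraries of Cebpb lie below the veh libraries of the same diet, and Rxra is lower in the 4 libraries of cort on the HPD than in the other 11.

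Rxra was the other member called in liver. It read 154, 144 and 124 CPM in veh and 96.5, 104, 91.6 and 119 CPM in cort on the HPD, with no overlap. On the NPD it read 137, 133, 138 and 129 CPM in veh and 152, 139, 142 and 133 CPM in cort. The 4 libraries of cort on the HPD were below all 11 others. The left-out library 4 of veh on the HPD stood at 97.4 CPM in a scaling of all 16 liver libraries. That value is within the range of the 4 libraries of cort on the HPD, which were scaled without it. Red blood cell markers summed to 5271 to 7622 CPM in the 4 libraries of cort on the HPD and to 1358 to 3544 CPM in the other 11. With cort on the HPD 2 of 5 endothelial markers fell (29.2 to 43.3 CPM in sum, against 55.8 to 71.6 CPM in veh). The 5 hepatocyte markers summed to 139670 to 245460 CPM in the 4 libraries of cort on the HPD and to at most 120490 CPM in the other 11. Of these 5 markers, 2 rose with cort on the HPD and none fell. No marker of these lists was at 0, and their part in the difference of Rxra was not tested. The level was 1.36-fold lower with cort on the HPD (log2 -0.45 ± 0.14, adjusted p = 0.041; 9.89% of all genes passed) and 1.38-fold lower on the HPD than the NPD in cort (-0.46 ± 0.13, adjusted p = 0.036; 5.88% passed). On the NPD the cort difference was 0.08 ± 0.13, and the interaction did not pass (-0.53 ± 0.19, adjusted p = 0.26), where 0.113% of all genes passed. Rxra was the 1 member of 8 with an unadjusted p under 0.05 in the interaction, which 1496 of 12391 genes had, and no member passed it by edgeR, DESeq2 or limma. The first call was lost without library 1 of veh or 2 of cort on the NPD, or 1 or 2 of veh or 1, 2 or 3 of cort on the HPD (-0.46 to -0.39, adjusted p = 0.0505 to 0.171). The second was lost without library 2 of veh on the HPD, any of the 4 of cort on the NPD, or 1, 2 or 3 of cort on the HPD (-0.48 to -0.41, adjusted p = 0.052 to 0.11). Both were also lost with all 16 liver libraries, where the first was -0.32 (adjusted p = 0.20) and the second -0.45 (adjusted p = 0.11), with no filter on low counts, with a replicate block and with only the groups compared (adjusted p = 0.072 to 0.13 for the first and 0.058 to 0.10 for the second). For diet in veh, 0 members had an unadjusted p under 0.05 in liver, against 1165 genes, and none passed by edgeR, DESeq2 or limma, where 0.169% of all genes passed.

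The other members in liver did not pass. Nr1h3 read 86.5 to 110.0 CPM in veh and 55.3 to 86.8 CPM in cort on the NPD (-0.38 ± 0.15, adjusted p = 0.097), and 79.9 to 95.7 against 67.3 to 85.1 CPM on the HPD (-0.20 ± 0.16, adjusted p = 0.46). Its mean effect was -0.29 ± 0.11 (adjusted p = 0.060), which passed without library 2 of cort on the NPD (-0.34, adjusted p = 0.036) or 3 of cort on the HPD (-0.33, adjusted p = 0.048), with DESeq2, with voom and sample quality weights and with library totals (adjusted p = 0.014 to 0.047), and reached 0.14 with all 16 liver libraries. On the NPD alone Nr1h3 passed only with voom and sample quality weights (-0.40, adjusted p = 0.049). Pparg in liver, at 21 to 141 counts per library, differed by 0.63 ± 0.31 (adjusted p = 0.17). It passed without library 4 of veh on the NPD (0.87, adjusted p = 0.039) or 3 of veh on the HPD (0.92, adjusted p = 0.047). Cebpa differed by -0.12 (95% interval -0.33 to 0.09, turned to 0.0062 with all 16 liver libraries) and Cebpd by -0.17 (-0.64 to 0.31). Of 11 LXR target genes in liver, 4 fell on the NPD and none rose, where 12.6% of all genes passed. On the HPD, where 9.89% passed, 3 fell and 1 rose. Their medians were -0.27 on the NPD and -0.68 on the HPD.

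The difference between the tissues in their mean cort effect was tested in the fit of 31 libraries. It passed for 4 members, all lower in liver, where 7.76% of all genes passed. For Cebpb the liver effect was lower than the eWAT effect by -1.65 ± 0.28 on the log2 scale (adjusted p = 1.9e-04), for Cebpa by -0.65 ± 0.15 (adjusted p = 0.0042), for Nr1h3 by -0.61 ± 0.15 (adjusted p = 0.0064) and for Ebf1 by -1.25 ± 0.27 (adjusted p = 0.0020). Ebf1 rests on 2 to 15 liver counts and did not pass with limma voom (-1.21, adjusted p = 0.15, the other alternatives giving 0.0013 to 0.036). Cebpa did not pass with all 16 liver libraries (-0.53, adjusted p = 0.12, the other alternatives giving 2.5e-04 to 0.0046). The 4 differences passed without any single library of the 31. For Cebpd the difference was 0.97 ± 0.39 (adjusted p = 0.14), which passed with DESeq2 (0.99, adjusted p = 0.0496) and when replicate number was a block (0.90, adjusted p = 0.0021) and reached 0.24 in the other alternatives, and for Pparg it was 0.23 ± 0.43 (adjusted p = 0.88).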

How the data were processed

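Raw counts per Ensembl gene, deposited by the authors with 1 column per library, were used as given. They are whole numbers, not normalized, from QuantSeq 3′ libraries. The submitters' processing notes name GRCm38/mm10, R 4.0.3 and limma. The aligner, the counting program, the annotation and the use of strand are not given in the sources used here. Symbols were matched for 47224 of 47643 IDs, and positions and overlaps are from GENCODE vM21. Genes passed a filter (filterByExpr, at least 10 counts in enough libraries and 15 in total), were scaled by TMM and went into the robust quasi-likelihood test of edgeR 4.0.16 (R 4.3.3), with 1 mean per group and Benjamini-Hochberg adjustment over all genes tested. All 16 eWAT libraries shared a fit, as did 15 liver libraries, without library 4 of veh on the HPD. SE was the log2 fold change divided by the root of F, and 95% intervals are 1.96 SE on each side. This multiplier is that of a normal distribution. The quasi-likelihood test allows for the few libraries, so the intervals are narrower than its p-values imply. Means, SD and ranges are of TMM-scaled CPM. Of 496 library pairs, 0 had identical counts. Alternatives were RLE factors, library totals, no filter, DESeq2 1.42.0, limma 3.58.1 voom with and without sample quality weights, fits of only the groups compared, a replicate block, all 16 liver libraries and leaving out each library in turn. The method was tested on simulated data, with changes larger than the cort changes called for the members and a spread lower than that of the eWAT libraries. That test does not show how well changes of the size reported for the members are found. The members, the gene lists and the tests were chosen with earlier results of these data known. Named genes are the 10 members and, from each list, up to 3 called genes per direction with the smallest p in each eWAT cort comparison. The called genes among those known to respond to glucocorticoids are also named for liver. Tmem189 and Spidr were chosen after their values were seen.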

Additional observations from a re-analysis of the deposited data

Results flagged for a closer look

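In groups of 4 libraries, a library was marked when its gap to the nearest other library, over the whole range, passed Dixon's 95% critical value. Of 70 member groups 7 were marked and of 25 ratio groups 2, where chance marks about 1 in 20. Of these, 4 values come from eWAT libraries of veh on the NPD. Pparg in library 2 stood at 254 CPM against 91.2 to 118 CPM in the other 3. Cebpa in library 1 stood at 408 CPM against 321 to 331 CPM, Nr1h3 in the same library at 96.1 CPM against 69.2 to 72.1 CPM, and the log2 ratio of Ebf2 to Ebf1 in it at -2.40 against -3.07 to -2.96. In library 4 of veh on the HPD in eWAT, Ebf2 stood at 87.6 CPM against 70.7 to 72.7 CPM and Rxra at 107 CPM against 85.0 to 88.5 CPM. In liver, Cebpb stood at 89.2 CPM in library 1 of cort on the HPD against 45.8 to 51.5 CPM, and the log2 ratio of Cebpb to Cebpa at -1.75 in library 2 of cort on the NPD against -2.29 to -2.22. Ebf2 stood at 0.474 CPM in liver library 1 of veh on the NPD and at 0 in the other 3, which is 6 counts.

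The cort effect differed between liver and eWAT, tested as a contrast of the 2 mean effects, for Cebpb (-1.65), Ebf1 (-1.25), Cebpa (-0.65) and Nr1h3 (-0.61 on the log2 scale, liver minus eWAT).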

How the results depend on the processing

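Of the values recomputed under an alternative other than leaving out a library, 600 kept their direction and side of the threshold, 17 lost a call, 15 gained one and 16 turned in direction; with 1 library left out the numbers were 1462, 62, 10 and 27. The cause was not tested for any of them. With library totals, 3 members were called for the mean cort effect in eWAT and 3 in liver, the log2 difference of Rxra with cort on the NPD in eWAT was -0.00047, the eWAT interaction of Cebpa was 0.033 and Cebpa in liver against eWAT was -0.33. Library totals moved the median of all genes by -0.11 for cort on the NPD in eWAT, and in liver by -0.24 for cort on the HPD, -0.18 for diet in cort, -0.22 for the interaction and -0.14 for the mean effect. DESeq2 called 2 members for the mean effect in liver. With limma voom the eWAT difference of Klf5 on the NPD was -0.069, the eWAT interaction of Cebpa 0.0044, Klf5 in liver 0.41 on the HPD and 0.54 for the mean effect, and its tissue difference 0.30. With sample quality weights these 5 values were -0.18, 0.074, 0.086, 0.44 and 0.27, the mean effect of Rxra in eWAT was 0.0075, and in liver 2 members were called on the NPD and 2 for the mean effect. With only the groups compared, 1 member was called with cort on the HPD in eWAT. In liver 1 member was called with cort on the HPD and 0 for diet in cort with no filter, with only the groups compared, with a replicate block and with all 16 libraries. With all 16 liver libraries Cebpa stood at 0.079 on the HPD and 0.0062 for the mean effect.

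With 1 library left out, the members called were 1 to 2 with cort on the HPD and 3 to 6 for the mean effect in eWAT, and in liver 0 to 1 on the NPD, 1 to 2 on the HPD, 0 to 1 for diet in cort and 1 to 2 for the mean effect. Differences that crossed 0 in eWAT were those of Ebf2 on the NPD (-0.19 to 0.088), Klf5 on the NPD (-0.42 to 0.38) and HPD (-0.053 to 1.06), the mean effect of Rxra (-0.058 to 0.011) and the interactions of Cebpa (-0.11 to 0.16), Zfp423 (-0.16 to 0.037) and Cebpd (-0.59 to 0.069). In liver they were Cebpd on the NPD (-0.081 to 0.37), HPD (-0.67 to 0.12) and on average (-0.30 to 0.10), and Klf5 on the NPD (-0.17 to 0.42), HPD (-1.24 to 0.10) and on average (-0.51 to 0.15). The tissue difference of Ebf2 ran from -2.75 to 0.25.

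The replicate numbers were not taken to pair libraries, since the deviations of same-numbered libraries correlated at -0.115 to 0.253 in eWAT (24 pairs) and -0.131 to 0.161 in liver (21 pairs), against -0.178 to 0.218 and -0.223 to 0.201 for different numbers. Between eWAT and liver of a group the same numbers gave -0.004 to 0.113 (15 pairs, median 0.022) and different numbers -0.089 to 0.061 (median -0.015). The labels do not say whether eWAT and liver libraries of 1 number come from the same mouse. With the replicate block, Rxra in liver on the HPD was -0.46 (adjusted p = 0.072), the mean effect of Cebpb in eWAT was 0.50 (adjusted p = 0.018) and the tissue difference of Cebpd was 0.90 (adjusted p = 0.0021).

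Over all genes, the 9 genes called for diet in veh in eWAT became 16 with library totals, 30 with no filter, 126 with DESeq2, 19 with voom, 34 with sample quality weights and 4 with only the groups compared. The 74 for diet in cort became 195 with DESeq2, 120 with sample quality weights and 165 with only the groups compared. The 2 for the interaction became 0 with library totals and with voom, 4 with no filter, 14 with DESeq2, 1 with sample quality weights and 9 with the replicate block. In liver the 21 for diet in veh became 56 with no filter, 113 with DESeq2, 46 with sample quality weights and 7 with all 16 libraries. The 14 for the interaction became 9 with RLE factors, 23 with library totals, 72 with no filter, 130 with DESeq2, 7 with voom and 1 with all 16 libraries. With all 16 libraries the 1565 for cort on the NPD became 998 and the 729 for diet in cort became 371. Ebf1, Ebf2, Zfp423 and Klf5 had at most 15 counts in a liver library, which limits what could be seen of them there.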
